A study of Rattus norvegicus with 6 samples.

Results

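In all, 6 genes of the cellular defence against oxidants were followed in primary endothelial cells of the rat abdominal aorta: Nfe2l2, Hmox1, Nqo1, Sod1, Sod2 and Cat. They were taken by Ensembl identifier from a table of 32879 gene rows, and all 6 rows were present and deep enough to test. The wild-type group (WT, 3 libraries) and the group labelled by genotype as miR-337-3p knockdown (KD, 3 libraries), that is, reduced in a microRNA, were compared. Titles and the series design call the second group a knockout, and 1 treatment text, the same for all 6 libraries, gives transfection of an inhibitor designed against the human form of this microRNA, at 100 nM, so what WT cells received is not settled by the labels. Cells of both groups were grown on fibronectin in endothelial medium. The labels do not say whether the 3 libraries of a group came from separate animals or cultures, so p-values measure the spread between these libraries, which may be technical.

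Nfe2l2 encodes NRF2, a transcription factor that is kept low by KEAP1-dependent degradation and accumulates when oxidants or electrophiles modify KEAP1. NRF2 then binds antioxidant response elements of genes such as Hmox1 and Nqo1, whereas BACH1 represses Hmox1 in particular until haem displaces it. Because NRF2 is controlled largely at the protein level, its messenger RNA is not a readout of its activity. In the vessel wall the superoxide dismutases and catalase remove superoxide and hydrogen peroxide, and superoxide consumes endothelial nitric oxide.

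The mature microRNA that the labels name as the target is shown to identify the perturbed molecule. The rat sequence (RefSeq, GRCr8, chr6:134321201-134321223, plus strand) is 23 bases long, and capitals mark its seed, bases 2 to 8. No other mature rat microRNA in the RefSeq list shares that seed.
rno-miR-337-3p: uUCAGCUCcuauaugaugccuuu
Sites for this seed in the messenger RNAs of the 6 genes, and the level of the microRNA itself, are not analysed here.

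Library totals were 5037127 to 5385434 estimated counts, and each of the 6 genes had a mean of at least 402.9 estimated counts per library. Replicate libraries of a group differed by more than counting noise. The chi-square per row between pairs was 2.49 to 8.46 over the 8148 rows averaging 50 counts or more, where counting noise alone gives about 1. Levels are given as CPM, the estimated count per 1000000 counts of the library, without correction for gene length, so they are compared between libraries and not between genes. Most rows, among them the 6 genes, are named by Ensembl identifier (10968 rows were tested with Ensembl rows alone, 12852 in all). These identifiers could not be paired with gene names here, so the endothelial identity of the cells was not checked against marker genes.

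Both classical inducible targets moved, and they did so in opposite directions in KD cells. By mean CPM, Hmox1 fell to 0.520 of its WT level and Nqo1 rose to 1.57 times its WT level. The edgeR fits used below, which also scale libraries by TMM, gave 0.536 for Hmox1 and 1.62 for Nqo1. Nfe2l2 itself had means of 118 CPM in WT and 120 CPM in KD. Of the antioxidant enzymes, Sod1 rose slightly, and Sod2 and Cat did not pass the test. In all, 2 of the 6 genes rose, 1 fell and 3 did not pass (edgeR's quasi-likelihood test, p adjusted by Benjamini-Hochberg over 12852 tested rows, threshold 0.05). Over all tested rows 21.2% passed, 11.0% as rises and 10.3% as falls, and 27.5% of the 2128 rows at least as abundant as Cat passed. With so few genes, their count cannot be set apart from that background. In such bulk samples fewer cells of a type and less RNA per cell cannot be told apart. The median log2 fold change was 0.11 over the 6 genes and -0.0033 over all tested rows.

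**Figure D1:**
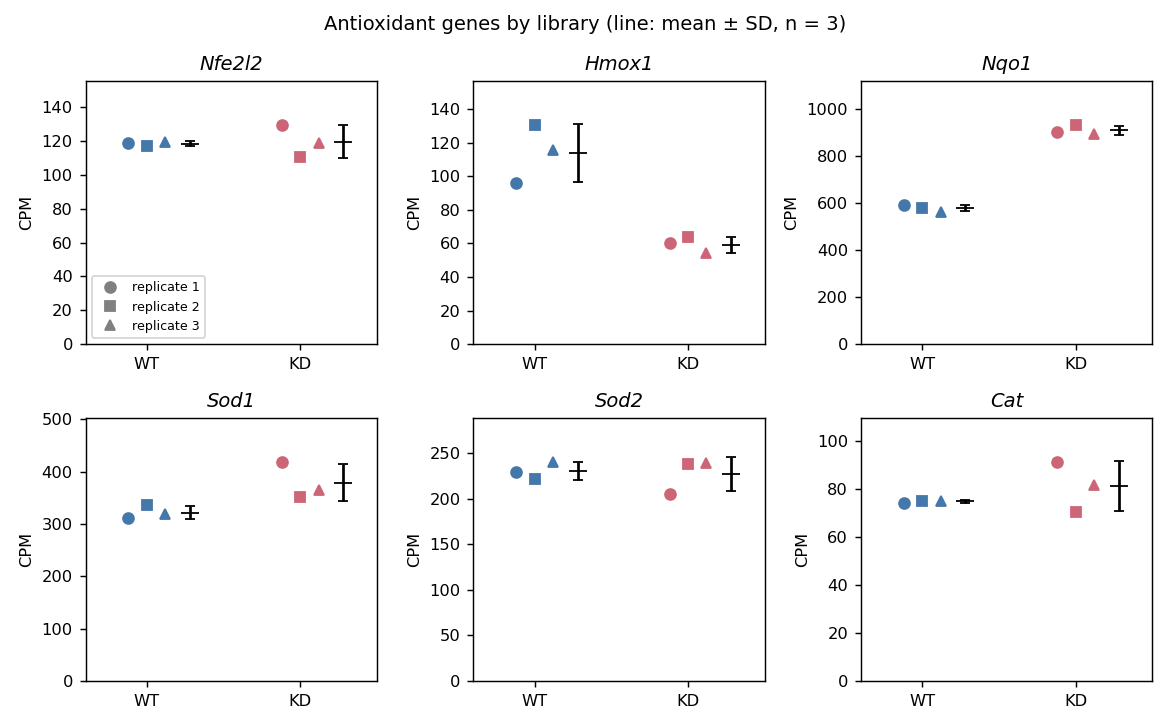
CPM of each gene (vertical axes, starting at 0) in the 3 WT and 3 KD libraries, 1 symbol per replicate number, with the mean and SD of each group (n = 3) as a line. Hmox1 lies at 54.2 to 63.6 CPM in KD and 96.1 to 131 in WT libraries, Nqo1 lies above its WT values in all 3 KD libraries, and KD replicate 1 is the highest library for Nfe2l2, Sod1 and Cat and the lowest for Sod2.

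Nfe2l2 (ENSRNOG00000001548), the regulator, stood at 119, 117 and 120 CPM in WT replicates 1, 2 and 3 and at 129, 110 and 119 CPM in KD replicates 1, 2 and 3. The KD libraries lay on both sides of the WT libraries, with the highest and the lowest of the 6 values. The means were 118 ± 1.45 CPM in WT and 120 ± 9.57 CPM in KD (SD, n = 3 each). The log2 fold change was 0.061 (SE 0.087, edgeR adjusted p = 0.69). Its 95% interval, -0.12 to 0.24, covers KD levels between 0.921 and 1.18 times WT.

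Hmox1 (ENSRNOG00000014117) encodes haem oxygenase 1, which breaks haem down to biliverdin, carbon monoxide and iron. It was counted at 96.1, 131 and 115 CPM in WT replicates 1, 2 and 3 and at 60.0, 63.6 and 54.2 CPM in KD replicates 1, 2 and 3. Every KD library lay below every WT library, which holds for 20.5% of tested rows (KD below WT) and for 35.4% in either direction. Mean levels were 114 ± 17.3 CPM in WT and 59.3 ± 4.72 CPM in KD (SD, n = 3 each). The log2 fold change was -0.90 (SE 0.11, edgeR adjusted p = 1.5e-06), a 1.86-fold fall with a 95% interval of 1.60 to 2.18. Among all tested rows 3.66% had a fall at least as large. WT libraries varied more than KD libraries: the coefficient of variation was 15.1% in WT, where counting alone gives 4.10%, and 7.96% in KD, where it gives 5.72%. WT replicate 1 is the WT library nearest to the KD values, and its estimated count of 489 compares with 672 in WT replicate 2.

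Nqo1 (ENSRNOG00000012772) encodes a quinone reductase that transfers a pair of electrons at once and so avoids reactive semiquinones. It was counted at 592, 580 and 563 CPM in WT replicates 1, 2 and 3 and at 901, 931 and 894 CPM in KD replicates 1, 2 and 3. The groups were far apart relative to their spread, with all KD libraries above all WT libraries, an order found in 14.9% of tested rows. Means were 578 ± 14.8 CPM in WT and 909 ± 19.8 CPM in KD (SD, n = 3 each). The log2 fold change was 0.70 (SE 0.075, edgeR adjusted p = 2.5e-07), a 1.62-fold rise with a 95% interval of 1.46 to 1.81. A rise at least as large was fitted for 6.78% of tested rows. The coefficient of variation was 2.55% in WT and 2.18% in KD libraries, above the 1.82% and 1.46% that counting alone gives. Its estimated counts were fractional in all 6 libraries, as were those of Sod2 and Cat, whereas those of Hmox1 were whole in 5 of 6 (any printed decimal counts as fractional, a tolerance of 0). Fractions can arise where reads are divided between rows, and with which rows cannot be told from the table.

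**Figure D2:**
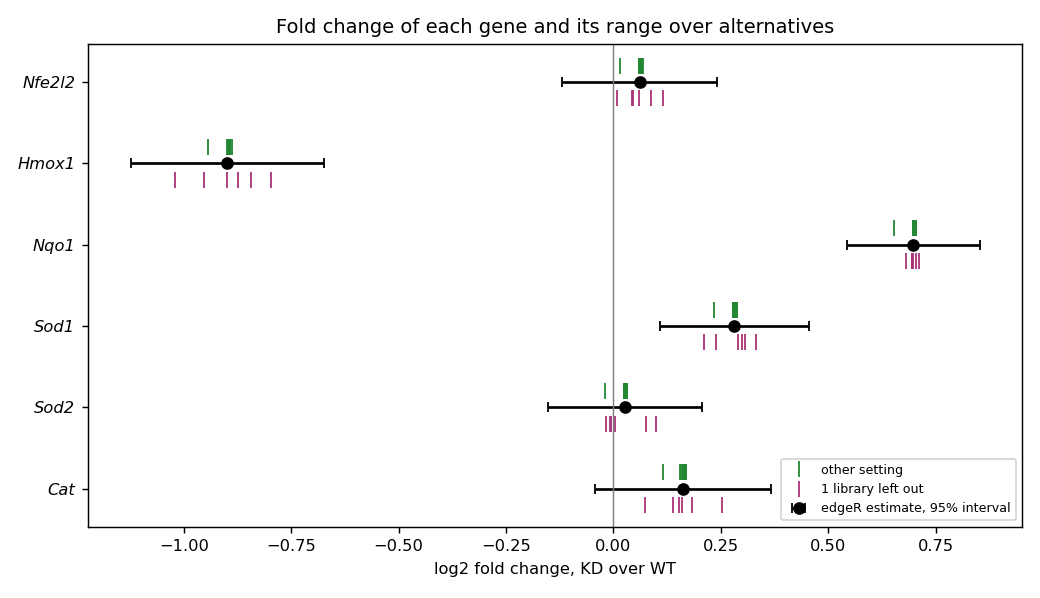
Log2 fold change of KD over WT for each gene: points with 95% intervals are the edgeR estimates, upper ticks are the 10 other settings (scaling, tool, filter, replicate block, rounding, rows tested) and lower ticks the 6 fits without 1 library. All ticks of Hmox1 lie between -1.02 and -0.80 and all ticks of Nqo1 between 0.65 and 0.71, whereas those of Sod2 lie on both sides of 0.

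Because a ratio of 2 genes within a library does not depend on how libraries are scaled, Hmox1 and Nqo1 were also set against Nfe2l2. The ratio of Hmox1 to Nfe2l2 counts was 0.811, 1.12 and 0.964 in WT replicates 1, 2 and 3 and 0.463, 0.576 and 0.456 in KD replicates 1, 2 and 3. It was lower in every KD library than in any WT library. Of single tested rows 35.4% separate the groups in either direction, and for ratios this share was not computed. The mean log2 ratio was -0.065 ± 0.23 in WT and -1.01 ± 0.19 in KD (SD, n = 3 each), a difference of -0.95 (two-sided exact permutation p = 0.1, the smallest that 20 arrangements allow, adjusted over 3 ratios p = 0.15). The ratio of Nqo1 to Nfe2l2 went the other way. It was 4.99, 4.97 and 4.71 in WT replicates 1, 2 and 3 and 6.96, 8.44 and 7.51 in KD replicates 1, 2 and 3, again without overlap. The mean log2 ratio was 2.29 ± 0.048 in WT and 2.93 ± 0.14 in KD (SD, n = 3 each), a difference of 0.64 (two-sided exact permutation p = 0.1, adjusted p = 0.15). With 0.1 as the smallest p, neither permutation test could pass the threshold of 0.05 whatever the values.

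The ratio of Nqo1 to Hmox1, computed after the opposite changes had been seen and given without a test, was 6.16, 4.44 and 4.88 in WT replicates 1, 2 and 3. In KD replicates 1, 2 and 3 it was 15.0, 14.6 and 16.5. The geometric mean of this ratio was thus 3.00 times as high in KD as in WT libraries. These ratios of counts carry the lengths of both genes, so their change between groups can be read and their absolute size cannot.

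**Figure D3:**
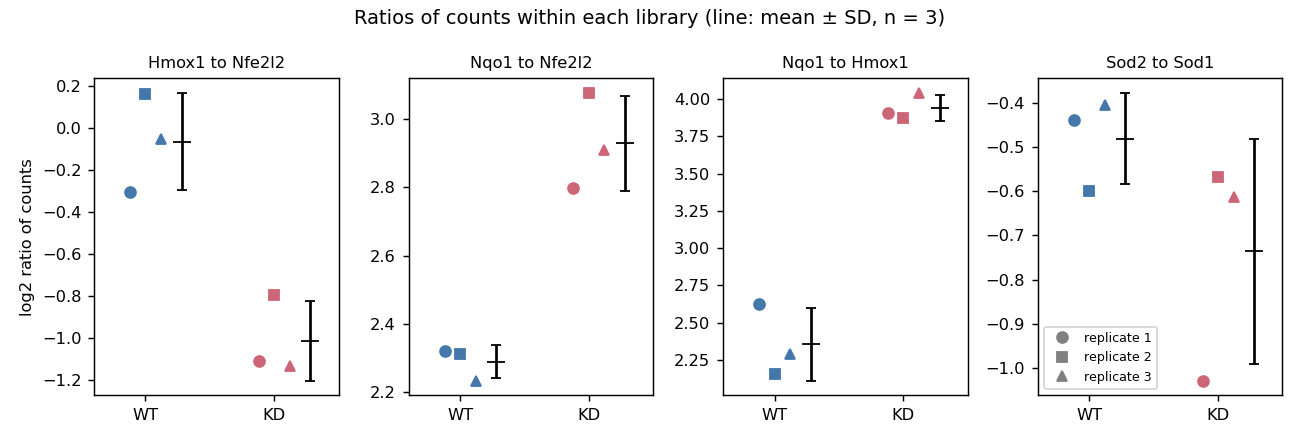
Log2 ratio of the counts of 2 genes in the same library (vertical axes, which do not start at 0), for WT and KD libraries, with mean and SD (n = 3). The first 3 panels separate the groups without overlap, with Hmox1 to Nfe2l2 lower in KD and Nqo1 to Nfe2l2 and Nqo1 to Hmox1 higher. In the Sod2 to Sod1 panel KD replicate 1 lies apart at -1.03, KD replicate 2 lies within the WT range at -0.57 and KD replicate 3 just below it at -0.61.

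Superoxide dismutases turn superoxide into hydrogen peroxide, Sod1 (ENSRNOG00000002115) chiefly in the cytosol with copper and zinc and Sod2 (ENSRNOG00000019048) in mitochondria with manganese. Sod1 had 311, 336 and 319 CPM in WT replicates 1, 2 and 3 and 419, 352 and 365 CPM in KD replicates 1, 2 and 3. All KD libraries lay above all WT libraries, an order found in 14.9% of tested rows, and the lowest KD value was close to the highest WT value. Means were 322 ± 12.5 CPM in WT and 379 ± 35.4 CPM in KD (SD, n = 3 each), with a log2 fold change of 0.28 (SE 0.083, edgeR adjusted p = 0.018). This is a 1.22-fold rise with a 95% interval of 1.08 to 1.37, and 19.6% of tested rows had a rise at least as large. The call was lost without KD replicate 1 (log2 fold change 0.21, edgeR adjusted p = 0.053), WT replicate 1 (0.24, adjusted p = 0.10) or WT replicate 2 (0.31, adjusted p = 0.052), and at an adjusted p of 0.01.

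Sod2 had 229, 221 and 241 CPM in WT replicates 1, 2 and 3 and 206, 237 and 239 CPM in KD replicates 1, 2 and 3. The groups overlapped, and the lowest value belonged to KD replicate 1. Means were 231 ± 9.64 CPM in WT and 227 ± 18.9 CPM in KD (SD, n = 3 each). The log2 fold change was 0.026 (SE 0.086, 95% interval -0.15 to 0.21, edgeR adjusted p = 0.88). Its sign turned with library-size scaling and in 3 of the 6 fits that each left out 1 library. The interval covers KD levels between 0.899 and 1.15 times WT.

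Whether the pair of dismutases moved apart was tested through their ratio. The Sod2 to Sod1 ratio of counts was 0.737, 0.660 and 0.755 in WT replicates 1, 2 and 3 and 0.491, 0.675 and 0.654 in KD replicates 1, 2 and 3. KD replicate 2 lay above WT replicate 2, so the groups overlapped. The difference in mean log2 ratio was -0.25 (two-sided exact permutation p = 0.2, adjusted p = 0.2) and became -0.11 without KD replicate 1. With 20 arrangements the smallest p this test allows is 0.1, so it could not pass the threshold whatever the values. It therefore does not decide whether Sod1 rose relative to Sod2, and the values show only that the groups overlapped in this ratio.

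Cat (ENSRNOG00000008364) encodes catalase, the mainly peroxisomal enzyme that splits hydrogen peroxide into water and oxygen. It had 74.1, 75.0 and 75.1 CPM in WT replicates 1, 2 and 3 and 91.3, 70.4 and 81.3 CPM in KD replicates 1, 2 and 3. KD libraries lay on both sides of the WT values. Means were 74.7 ± 0.542 CPM in WT and 81.0 ± 10.4 CPM in KD (SD, n = 3 each), with a log2 fold change of 0.16 (SE 0.099, edgeR adjusted p = 0.28). The 95% interval of -0.043 to 0.37 covers KD levels between 0.970 and 1.29 times WT. The WT coefficient of variation of 0.726% was below the 5.07% that counting alone gives, so the WT SD understates the error of this gene. The same held for Nfe2l2 in WT libraries, with 1.22% against 4.03%.

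Across the genes, KD libraries did not vary in the same way. KD replicate 1 had the highest level of Nfe2l2, Sod1 and Cat of all 6 libraries and the lowest level of Sod2. For Hmox1 and Nqo1 it lay between the other KD libraries. Without KD replicate 1 the log2 fold change was 0.0078 for Nfe2l2 (edgeR adjusted p = 0.97), 0.074 for Cat (adjusted p = 0.65) and 0.10 for Sod2 (adjusted p = 0.42). For Hmox1 it was -0.90 (edgeR adjusted p = 2.5e-05) and for Nqo1 0.71 (adjusted p = 3.8e-07). The fall of Hmox1 and the rise of Nqo1 were thus as large without this library. Whether the library accounts for the other differences was not tested beyond these fits.

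**Figure D4:**
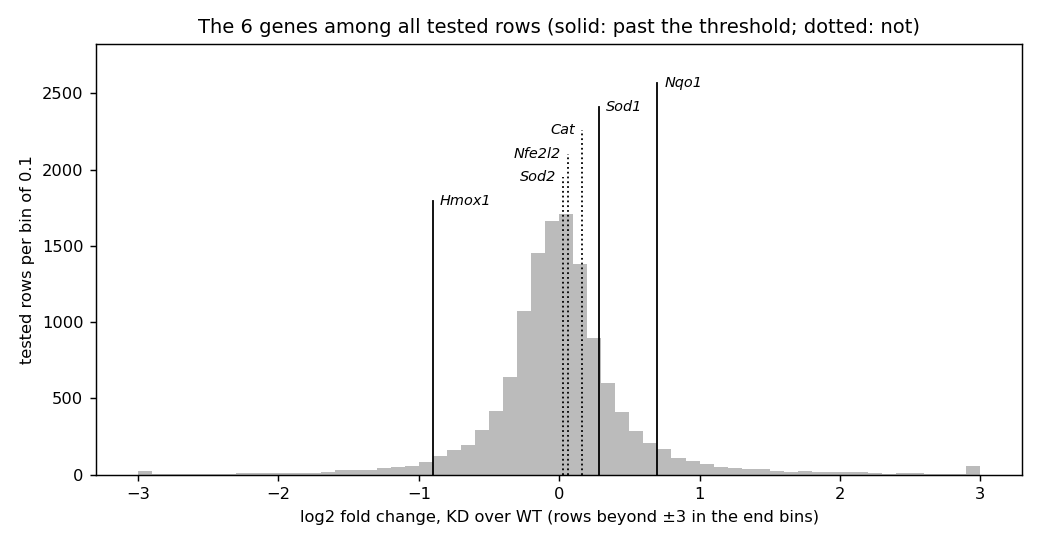
Number of tested rows (vertical axis) per bin of 0.1 in log2 fold change of KD over WT (horizontal axis), with the 6 genes as lines, solid where they passed the test. Hmox1 at -0.90 and Nqo1 at 0.70 lie in opposite flanks of the distribution, and Sod2, Nfe2l2 and Cat lie in its centre.

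The rows most like Nfe2l2 and Hmox1 across the 6 libraries were sought among the 8147 other tested rows averaging 50 counts or more. Likeness was the root mean square difference of log2(CPM + 0.5) profiles, each centred on its own mean. ENSRNOG00000012812 was nearest to Nfe2l2, with a difference of 0.0092 where the median row had 0.18. Its means were 38.2 ± 0.637 CPM in WT and 38.9 ± 3.35 CPM in KD (SD, n = 3 each). Nearest to Hmox1 was ENSRNOG00000008048, with a difference of 0.11 where the median row had 0.48. It went from 31.4 ± 3.26 CPM in WT to 15.8 ± 1.38 CPM in KD (SD, n = 3 each). Both rows were picked for their likeness over these same libraries, so their levels are a description and no test is given. The table does not pair these identifiers with gene names.

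The promoter windows of the genes, 250 bases before to 50 after the start site in RefSeq (GRCr8), were searched on both strands for TGACNNNGC, the core of the antioxidant response element, since this element is what joins the inducible genes to NRF2. Windows were found for 5 of the 6 genes, all but Hmox1. The core occurred in the windows of Nfe2l2 and Sod2 and in none of the windows of Nqo1, Sod1 and Cat. Of all 33469 promoter windows 12.1% hold it. Capitals mark the core in the stretches printed here, both on the strand of the gene. In Nfe2l2 (chr3:81028950-81028971, minus strand) it lies 39 to 47 bases after the start site, and in Sod2 (chr1:50050185-50050213, minus strand) 35 to 27 bases before it, where it reads on the opposite strand.
Nfe2l2: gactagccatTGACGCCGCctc
Sod2: ggcgctgccgGCAGGGTCAgcgcctagct
These matches describe letters in a short window only, and elements farther from the start sites were not searched. A window without the core therefore does not show that its gene lacks the element, and no link to the expression changes can be drawn.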

How the data were processed

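RNA of 3 WT and 3 KD libraries was measured by full-length transcriptome sequencing. The authors deposited 1 table of estimated counts per gene, not normalized, on genome build mRatBN7.2 per the submitters' processing notes. The aligner, the counter and the strandedness were not given in the sources used here. Estimated counts were rounded and the whole table was fitted in R 4.3.3 with edgeR 4.0.16. Rows were filtered by filterByExpr and libraries scaled by TMM, group was the only term, and p-values of the quasi-likelihood test were adjusted by Benjamini-Hochberg across the 12852 rows tested. Standard errors (SE) are approximate, taken from the fold change and its F statistic, and 95% intervals use the t quantile of the fit. CPM use library totals of 5037127 to 5385434 without TMM factors. The fitting was tested on simulated counts.

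All 6 genes were named by rule. The genes and lists were chosen with earlier results of these data known, and symbols were assigned to the 6 identifiers with that choice. The reference gene list pairs 0 Ensembl identifiers, so lists of other pathway genes and of cell type markers were not run. As alternatives served limma-voom (limma 3.58.1), DESeq2 1.42.0, other scalings and filters, a replicate block, a stricter threshold and single libraries left out. Unrounded counts and Ensembl rows alone were added after seeing the data.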

Additional observations from a re-analysis of the deposited data

How the results depend on the processing

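Hmox1 stayed a fall and Nqo1 a rise past the threshold in all 16 alternatives run for each, with adjusted p of 7.2e-12 to 5.6e-05 and 3.1e-21 to 2.7e-05. Sod1 stayed past it in the 10 alternatives with all libraries (adjusted p 0.0085 to 0.041). With single libraries left out its log2 fold change was 0.21 to 0.33 and its adjusted p 0.0099 to 0.10. In 3 of these 6 fits the call was lost. Each of them also had fewer libraries, and the cause of the lost calls was not tested. Sod2 reversed to -0.020 with library size alone, and with single libraries left out it ranged from -0.018 to 0.10. Library size alone moved the median of all rows to -0.049 and called 1234 rises and 1633 falls in place of 1409 and 1321; DESeq2 called 1076 and 892. The 3 calls among the 6 genes became 2 at an adjusted p below 0.01, and also in 3 of the 6 fits that each left out 1 library. All rows called numbered 1988 to 2759 with single libraries left out, and falls numbered 824 at an adjusted p below 0.01. With the replicate block 2960 rows were called in place of 2730, and the log2 fold changes were -0.89 for Hmox1, 0.70 for Nqo1 and 0.28 for Sod1, with no call changed among the 6 genes. Same-numbered libraries shared little deviation (correlations -0.016, 0.0045 and 0.038), and in 1 of 3 numbers a WT library correlated best with its own number. With 3 libraries per group these values cannot settle whether the numbers mark pairs. At 5037127 to 5385434 counts per library the 95% intervals of the log2 fold change were -0.12 to 0.24 for Nfe2l2, -0.15 to 0.21 for Sod2 and -0.043 to 0.37 for Cat. Rises and falls within those limits are not excluded.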
